A study of Mus musculus with 8 samples.

Results

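The genes described here are 10 markers of the choroid plexus and of the dorsal midline of the embryonic forebrain: Otx2, Lmx1a, Msx1, Ttr, Kl, Enpp2, Folr1, Aqp1, Clic6 and Rsph1. They were chosen by name from a count table of 27179 genes, and all 10 passed the filter on low counts. The RNA came from the cerebral cortex of mouse embryos, 4 with the genotype Taf8 +/+ (wild-type) and 4 with Taf8 -/lox (Taf8-deleted), with 1 library per embryo. Taf8 codes for part of TFIID, which sits on core promoters before RNA polymerase II is recruited. What recombines the lox allele, in which cells, and the embryonic day are not stated in the labels used here.

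The choroid plexus is the secretory tissue of the brain ventricles that makes cerebrospinal fluid. Its epithelium arises at the dorsal midline of the telencephalon, next to the cortical hem, a signalling centre that releases WNT and BMP proteins. The tissue lies against the medial wall of the cortex. The epithelium is known for very high expression of transthyretin, for ion and water transport and for tufts of cilia.

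The libraries held 26312505 to 65523487 counts in genes, and 3 counts correspond to 0.0469 to 0.112 CPM (counts scaled to library size), a floor that covers counting error only. Taf8 itself was at 32.0 to 38.5 CPM in wild-type and at 0.486 to 0.791 CPM in Taf8-deleted libraries. The cortical transcription factor gene Emx1 was present in all 8 libraries, at 55.1 to 76.3 CPM. Over 12 genes of cortical identity, 9 fell and 2 rose (Pax6 and Lhx2), and their summed level was 3562 to 3860.0 CPM in wild-type and 2625 to 3001 CPM in Taf8-deleted libraries. By edgeR's quasi-likelihood test with Benjamini-Hochberg adjustment over 15649 genes, 59.2% of genes differed between the groups at an adjusted p under 0.05, 29.5% being higher and 29.6% lower in Taf8-deleted cortex. These shares are the background for the counts of each gene list given below for all 8 libraries. They are relative to the other RNA of each library and depend on the scaling. With library size alone, 5257 of 15649 genes were higher and 4104 lower. The animal numbers in the labels are 408.4, 408.5, 408.6 and 409.2 for wild-type replicates 1 to 4, and 456.1, 472.1, 477.1 and 486.1 for deleted replicates 1 to 4. If the first part of the number marks a litter, litter and genotype cannot be told apart. On that reading wild-type replicates 1 to 3 are littermates and not independent of each other. Wild-type replicate 4 is then the only wild-type library of another litter, and each deleted replicate has its own litter.

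Within each group the libraries stood apart from each other in these genes. Deleted replicate 1 had the highest level of all 8 libraries for 10 of the 10 genes. Wild-type replicate 4 was the highest wild-type library for 9 of them, and deleted replicate 4 was the lowest deleted library for 9, the exception in both cases being Kl. Results are therefore given with and without wild-type replicate 4 and deleted replicate 1.

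**Figure D1:**
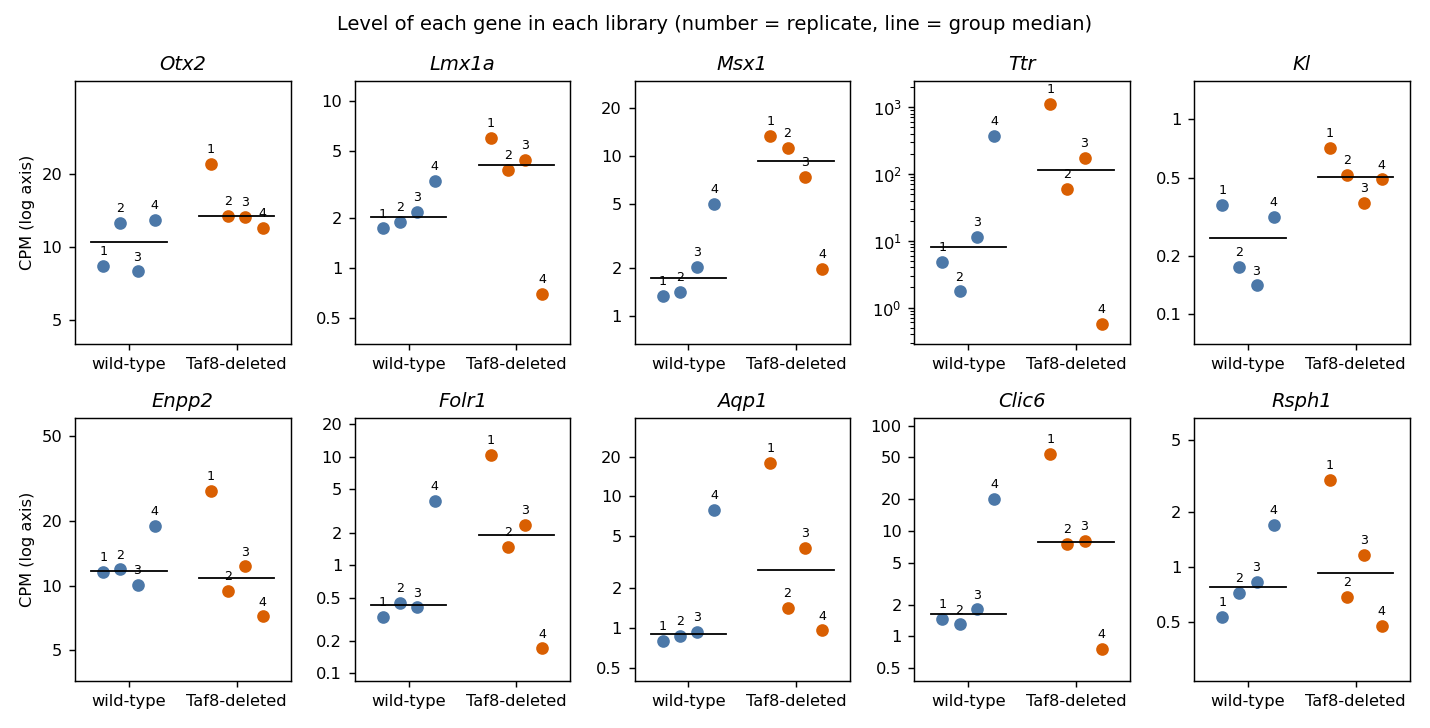
CPM of each of the 10 genes in each library on a log axis, wild-type in blue and Taf8-deleted in orange, with the replicate number beside each point and a line at the group median. Deleted replicate 1 is the highest point for 10 of the 10 genes, and the groups are separate for Kl alone.

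Of the 10 genes, 2 rose in Taf8-deleted cortex (Msx1 and Kl), 0 fell and 8 did not pass the test, against 29.5% of all tested genes rising. Their median log2 fold change was 1.20, against 0.01 over all tested genes, but it was 1.83 without wild-type replicate 4, -0.14 without deleted replicate 1 and 1.20 without both. Kl was the one gene of the 10 whose groups did not overlap, a property of 53.6% of all tested genes, 26.6% with the Taf8-deleted group higher. Without wild-type replicate 4 the number that rose was 7 (Otx2, Msx1, Ttr, Kl, Folr1, Aqp1 and Clic6), where 55.6% of all genes were called, 26.5% higher and 29.1% lower. Without deleted replicate 1 the number was 1 (Kl), where 55.1% were called, 26.4% higher and 28.7% lower. Without both libraries, an alternative chosen after seeing the data, 3 rose (Msx1, Ttr and Kl), where 51.5% were called, 25.2% higher and 26.2% lower. Both libraries were singled out for their high levels of Ttr and most of the other genes. Leaving out a group's highest library lowers both its mean and its spread. The calls of the 10 genes without either or both are therefore a description only.

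**Figure D2:**
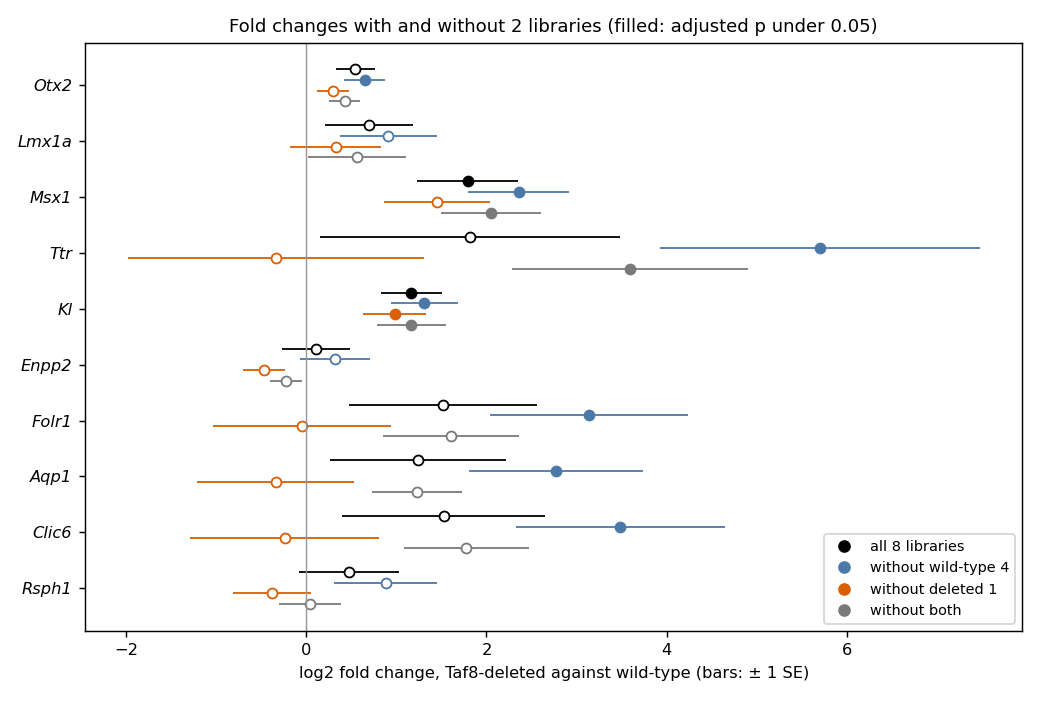
Log2 fold change of Taf8-deleted against wild-type with its standard error for each gene, from edgeR fits on all 8 libraries, leaving out wild-type replicate 4, leaving out deleted replicate 1 and leaving out both. Filled points have an adjusted p under 0.05. Ttr runs from -0.34 to 5.70, while Kl stays between 0.98 and 1.31.

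The promoter windows of Msx1 and Kl, the 2 genes that passed, are shown with that of the first Otx2 start, whose window holds 3 of the motifs searched. RefSeq promoter windows (GRCm38.p6) matched 5 of the 10 genes, with 8 windows in all because Otx2 has several starts. Each sequence is the 250 bases before the transcription start, 5′ to 3′ on the strand of the gene, and capitals mark the motifs that were found. The Otx2 window is chr14:48667645-48667894 on the minus strand, the Msx1 window chr5:37824586-37824835 on the minus strand and the Kl window chr5:150952357-150952606 on the plus strand.
Otx2: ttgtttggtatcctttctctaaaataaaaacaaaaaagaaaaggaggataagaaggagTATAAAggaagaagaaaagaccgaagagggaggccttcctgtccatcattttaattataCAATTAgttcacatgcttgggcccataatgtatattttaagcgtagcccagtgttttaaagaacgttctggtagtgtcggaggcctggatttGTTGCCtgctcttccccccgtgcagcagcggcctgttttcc
Msx1: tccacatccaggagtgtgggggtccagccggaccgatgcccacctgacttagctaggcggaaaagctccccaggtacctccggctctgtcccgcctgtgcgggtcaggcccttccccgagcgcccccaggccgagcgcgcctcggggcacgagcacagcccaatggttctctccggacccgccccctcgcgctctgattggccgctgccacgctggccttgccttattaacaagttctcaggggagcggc
Kl: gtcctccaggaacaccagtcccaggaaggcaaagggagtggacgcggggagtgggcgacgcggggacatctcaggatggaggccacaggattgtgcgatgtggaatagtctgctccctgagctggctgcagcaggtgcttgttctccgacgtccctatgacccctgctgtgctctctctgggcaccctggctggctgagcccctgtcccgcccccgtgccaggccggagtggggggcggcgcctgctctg

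The motif of the TATA-binding protein was searched on both strands as TATAAA. The motif of OTX factors was searched as TAATCC, that of MSX factors as CAATTA and part of the site of RFX factors, which regulate cilium genes, as GTTGCC. They occur in 12.4%, 6.25%, 7.17% and 10.4% of 32851 promoter windows of the same length. In the Otx2 window the first of these begins 192 bases before the start, the MSX motif 133 bases and the RFX motif 41 bases before it. TATAAA is absent from the windows of the other Otx2 starts. Start 2 holds the RFX motif, start 3 the OTX motif and start 4 the MSX motif. The Aqp1 window holds the RFX motif 111 bases before the start. None of the 4 motifs is in the Lmx1a, Msx1 or Kl window. The Msx1 and Kl windows are 68.0% and 66.8% G or C, with 20 and 13 CpG pairs, and the Otx2 window is 42.0% G or C with 6, against medians of 52.4% and 6 over all windows. A match describes the letters in a window and says nothing of whether a factor binds there.

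Msx1 (Entrez gene 17701, chromosome 5, 37820491 to 37824585, mm10) encodes a homeobox transcription factor of the dorsal midline that responds to BMP signals. Its level was 1.33, 1.42, 2.03 and 5.02 CPM in wild-type replicates 1 to 4 and 13.5, 11.3, 7.44 and 1.96 CPM in deleted replicates 1 to 4. Deleted replicates 1 to 3 lay above every wild-type library, and deleted replicate 4 lay within the wild-type range. Msx1 rose 3.46-fold, from 2.45 ± 1.74 to 8.55 ± 5.05 CPM (SD, n = 4 each), a log2 fold change of 1.79 (SE 0.56, edgeR adjusted p = 0.0186). The call was lost without deleted replicate 1 (log2 fold change 1.45, adjusted p = 0.0600), without deleted replicate 2 (adjusted p = 0.0501) and without wild-type replicate 2 (adjusted p = 0.0555). It was also lost with limma voom (adjusted p = 0.0918) and with the replicate number as a block (adjusted p = 0.0791).

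Markers of meningeal fibroblasts were also higher in deleted replicates 1 to 3. Col1a2, a fibrillar collagen gene, was at 3.85, 3.14, 2.53 and 6.23 CPM in wild-type and at 14.6, 27.1, 32.5 and 5.08 CPM in Taf8-deleted libraries. Over the list of 17 such markers, 8 of 16 tested rose and 1 fell (Foxp1), against 29.5% of all tested genes rising. Their summed level was 137 to 170.0 CPM in wild-type and 144 to 294 CPM in Taf8-deleted libraries, lowest of the deleted group in replicate 4. Their part in the Msx1 result was not tested. In bulk tissue, more cells of a type and more RNA per cell cannot be told apart.

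Otx2 (Entrez gene 18424, chromosome 14, 48656781 to 48667644), a homeobox gene required for forebrain and choroid plexus development, had the smallest spread within groups of the 10 genes. It was at 8.33, 12.5, 7.91 and 12.9 CPM in wild-type and at 22.0, 13.4, 13.3 and 12.0 CPM in Taf8-deleted libraries. Deleted replicates 1 to 3 were above every wild-type library, and deleted replicate 4 was below wild-type replicates 2 and 4. The log2 fold change of 0.54 (SE 0.22) did not pass the test (edgeR adjusted p = 0.0529). It did pass with DESeq2 (adjusted p = 0.0191), with upper-quartile scaling (adjusted p = 0.0446), with library size alone (adjusted p = 0.0400), under either other filter, without wild-type replicate 4 (adjusted p = 0.0366) and without deleted replicate 4 (adjusted p = 0.0349). It did not pass in the 6 other fits with 1 library left out, where the adjusted p reached 0.182 without deleted replicate 1 (log2 fold change 0.30), nor with limma voom (adjusted p = 0.0516), with quality weights (log2 fold change 0.35, adjusted p = 0.119), with the replicate number as a block (adjusted p = 0.0937) or without both libraries highest in Ttr (adjusted p = 0.0632). Exons of Otx2 overlap those of the antisense gene Otx2os1 (154 bases) and of Gm49154 on the same strand (168 bases). The strand setting of the counting is not stated, and the same-strand overlap does not depend on it. These overlaps were read from the GENCODE annotation, in which Otx2 has 4221 exon bases, while its deposited gene length is 1737 bases. The overlapping bases may lie outside the counted exons. Part of the Otx2 reads may therefore be uncertain, which was not tested. Markers of diencephalon and midbrain, where Otx2 is also expressed, rose in 1 (Barhl2) and fell in 1 (Six3) of 7 tested genes. Their summed level was 146.9 CPM in wild-type replicate 2 and 91.95 to 105.1 CPM in the other libraries. The part of these regions in the Otx2 level was not tested.

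Lmx1a (Entrez gene 110648, chromosome 1, 167688230 to 167848741), a LIM homeobox gene of the roof plate and cortical hem, was at 1.73, 1.89, 2.16 and 3.34 CPM in wild-type and at 6.01, 3.86, 4.45 and 0.698 CPM in Taf8-deleted libraries. As for Msx1, deleted replicates 1 to 3 were above every wild-type library. Deleted replicate 4 was below all of them, and the log2 fold change of 0.70 (SE 0.49) did not pass (edgeR adjusted p = 0.244). Without deleted replicate 4 Lmx1a rose 2.07-fold (edgeR adjusted p = 0.00368).

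The library lowest in Lmx1a was also lowest in WNT genes of the cortical hem. Wnt3a, which the medial cortex needs for growth, was at 0.642 CPM in deleted replicate 4 and at 2.02 to 4.87 CPM in the other 7 libraries. Wnt2b was at 0.906 CPM there and at 3.75 to 7.79 CPM in the other 7. Neither passed the test, with log2 fold changes of 0.10 (SE 0.46) and 0.00 (SE 0.46) and edgeR adjusted p of 0.868 and 0.995. Deleted replicate 1, the highest library for Ttr, had 2.32 CPM of Wnt3a, within the wild-type range.

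Across 27 hem and roof plate genes, 5 of 24 tested rose (Zic1, Zic2, Zic4, Id3 and Cdkn1c) and 2 fell (Wnt5a and Rspo3), with a median log2 fold change of 0.22. The shares over all tested genes were 29.5% rising and 29.6% falling. Cdkn1c, a cell cycle inhibitor gene, rose from 148 ± 16.2 to 361 ± 25.8 CPM (edgeR adjusted p = 5.27e-07). Id3, a BMP-induced repressor gene, rose from 19.4 ± 2.95 to 34.6 ± 4.69 CPM, and Zic4, a zinc finger gene of the dorsal midline, rose from 54.9 ± 11.7 to 91.0 ± 4.66 CPM. Wnt5a fell from 23.9 ± 1.80 to 15.6 ± 2.54 CPM (adjusted p = 0.000482). Deleted replicate 1 was the highest library for 4 of the 27 genes, against 10 of the 10 above. The close relatives of the 3 homeobox genes showed no call: Otx1 had an adjusted p of 0.0584, Msx2 of 0.351 and Msx3 of 0.371, while Crx and Lmx1b did not exceed 3 counts in any library.

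Ttr (Entrez gene 22139, chromosome 18, 20664209 to 20674326) encodes transthyretin, which carries thyroxine and retinol-binding protein. Its level was 4.81, 1.74, 11.4 and 366 CPM in wild-type replicates 1 to 4 and 1117, 59.5, 173 and 0.566 CPM in deleted replicates 1 to 4. The highest and lowest of the 8 libraries were both Taf8-deleted and differed 1972-fold, on 42344 and 30 counts. The log2 fold change of 1.82 had an SE of 1.67 (edgeR adjusted p = 0.370). Without wild-type replicate 4 it was 5.70 (SE 1.78, adjusted p = 0.0214), and without deleted replicate 1 it was -0.34 (SE 1.64, adjusted p = 0.878). Without both it was 3.59 (SE 1.31, adjusted p = 0.0472). These libraries were singled out because they were the highest in Ttr, so the p-values of Ttr without either or both are a description only. Both the direction and the call of Ttr thus changed with the libraries included.

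The SD of log2 CPM within groups was 4.02 for Ttr, the largest of the 15649 tested genes, whose median was 0.107. Clic6 ranked 9 at 2.19, Folr1 ranked 10 at 1.98 and Aqp1 ranked 23 at 1.71. In all, 4 of the 10 genes were among the 25 most variable and 8 were among the 300 most variable, the others being Kl (0.454) and Otx2 (0.383). The mean log2 CPM of Ttr, 4.74, was close to the median over all tested genes, 4.65.

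**Figure D3:**
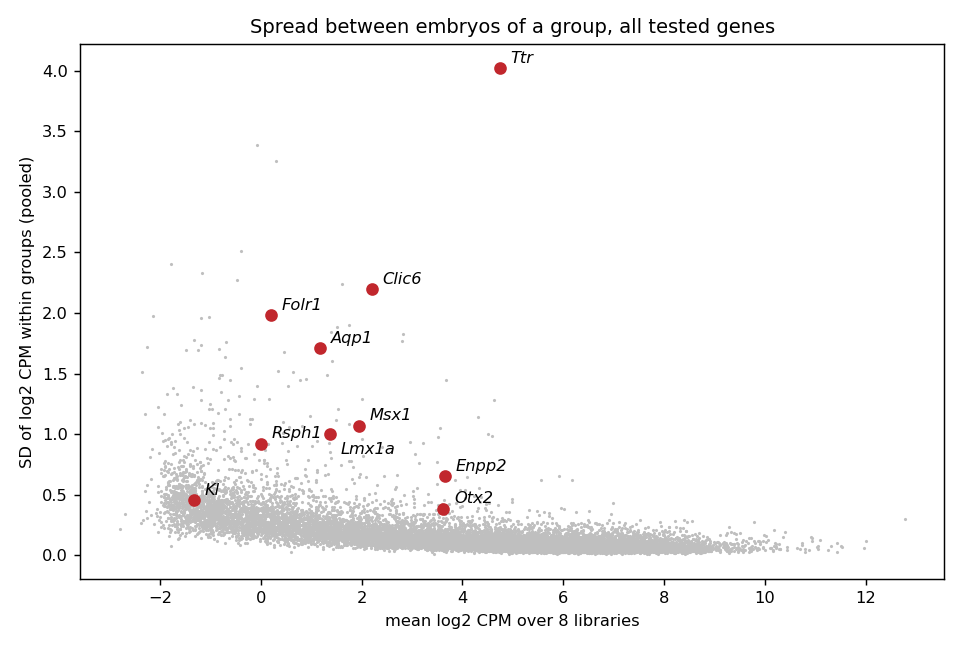
Pooled within-group SD of log2 CPM against mean log2 CPM over the 8 libraries for the 15649 tested genes (grey) and the 10 genes (red). Ttr lies highest at 4.02, and Clic6, Folr1 and Aqp1 follow between 1.71 and 2.19.

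The 5 genes whose deviations from the group means followed Ttr most closely, among 11652 genes with a mean of at least 5 CPM, were Kcne2, Cgnl1, Fzd6, Clic6 and Spg11. Pearson's r over the 8 libraries was 0.991, 0.983, 0.980, 0.974 and 0.968, a description only, since the genes were picked for it and share the same libraries. Kcne2, a potassium channel subunit gene of the choroid plexus, ran from 0.0189 to 28.7 CPM. Cgnl1, a cell junction gene, ran from 7.401 to 14.4 CPM and Fzd6, a WNT receptor gene, from 8.65 to 13.4 CPM. Cgnl1, Fzd6 and Spg11 rose in Taf8-deleted cortex (adjusted p = 0.00535, 0.00137 and 4.72e-07), and Kcne2 did not pass (adjusted p = 0.309).

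Of 9 tested genes of thyroid hormone and retinol handling, 6 fell and 1 rose (Dio3), the same counts as without either or both of the libraries highest in Ttr. With all libraries, 29.6% of all tested genes fell and 29.5% rose. In those other fits 26.2% to 29.1% fell and 25.2% to 26.5% rose. Thra, a thyroid hormone receptor gene, fell from 493 ± 24.7 to 295 ± 10.2 CPM (edgeR adjusted p = 4.68e-07). Thrb, the other receptor gene, fell from 2.14 ± 0.283 to 0.822 ± 0.300 CPM, and Rbp4, the retinol carrier gene, fell from 1.88 ± 0.347 to 0.336 ± 0.0727 CPM. Dio3, whose enzyme inactivates thyroid hormone, rose from 8.94 ± 0.223 to 15.7 ± 1.13 CPM. The 2 that did not pass, Slc16a10 and Slco1c1, are transporter genes. Slc16a10 was at 2.72, 3.02, 2.38 and 5.36 CPM in wild-type and at 14.9, 3.38, 4.23 and 3.15 CPM in Taf8-deleted libraries (adjusted p = 0.126), with wild-type replicate 4 and deleted replicate 1 at the top of their groups as for Ttr. Slco1c1 was also highest in deleted replicate 1, at 11.9 CPM (adjusted p = 0.653).

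Kl (Entrez gene 16591, chromosome 5, 150952607 to 150993817) encodes klotho, a coreceptor for FGF hormones made in kidney and choroid plexus. Its level was low, 0.365, 0.174, 0.141 and 0.315 CPM in wild-type and 0.712, 0.519, 0.374 and 0.491 CPM in Taf8-deleted libraries, on 7 to 27 counts. The groups did not overlap, but the exact Poisson 95% interval of the lowest deleted library, 0.179 to 0.688 CPM, overlapped that of the highest wild-type one, 0.182 to 0.653 CPM. Kl rose 2.24-fold, from 0.249 ± 0.108 to 0.524 ± 0.140 CPM, with a log2 fold change of 1.16 (SE 0.34, edgeR adjusted p = 0.0125). The call held with each of the 8 libraries left out in turn, at adjusted p of 0.00835 to 0.0418, and without both libraries highest in Ttr (0.0328). Deleted replicate 4, the lowest library for Ttr, had more Kl than every wild-type library.

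Of 8 tested klotho relatives, FGF receptor genes and protease genes that cleave klotho, 3 rose and 2 fell (Fgfr3 and Fgfr4). Klb, which encodes the related coreceptor beta-klotho, rose from 0.0863 ± 0.0264 to 0.505 ± 0.105 CPM (edgeR adjusted p = 6.11e-05). Its wild-type mean lay within the floor of 3 counts, 0.0469 to 0.0996 CPM in wild-type libraries, which limits the precision of the rise. Fgfr2, an FGF receptor gene, rose from 96.8 ± 4.64 to 146 ± 6.61 CPM, and Adam17, a protease gene, rose from 48.7 ± 0.801 to 67.2 ± 2.73 CPM. Fgfr4, a receptor gene, fell from 1.61 ± 0.351 to 0.651 ± 0.0115 CPM.

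Enpp2 (Entrez gene 18606, chromosome 15, 54838901 to 54952789) encodes autotaxin, the secreted enzyme that makes the lipid signal lysophosphatidic acid. Its level was 11.6, 11.9, 10.1 and 19.02 CPM in wild-type and 27.6, 9.48, 12.3 and 7.19 CPM in Taf8-deleted libraries. Wild-type replicate 4 and deleted replicate 1 were again the top of their groups, and the group ranges overlapped. The log2 fold change was 0.11 (SE 0.37, edgeR adjusted p = 0.821), and without both libraries highest in Ttr it was -0.23 (SE 0.18, adjusted p = 0.316). Exons of Enpp2 overlap those of the opposite-strand gene Gm26684 in the GENCODE annotation, so part of its reads may be uncertain too. Oligodendrocyte precursors can also express Enpp2, and their markers rose in 0 and fell in 4 of 8 tested genes, among them Olig1, Sox10 and Gpr17, with summed levels of 104 to 116 CPM in wild-type and 96.0 to 107 CPM in Taf8-deleted libraries. Their part in the Enpp2 level was not tested.

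Of 10 tested genes of lysophosphatidic acid signalling and breakdown, 1 rose and 3 fell. The receptor genes Lpar2 and Lpar4 fell, by log2 fold changes of -0.41 and -0.50 (edgeR adjusted p = 0.000197 and 0.00937). Plpp2, a lipid phosphatase gene, fell from 5.72 ± 0.745 to 4.48 ± 0.336 CPM. Enpp1, a relative of Enpp2 that acts on nucleotides, rose from 0.398 ± 0.0184 to 0.730 ± 0.257 CPM.

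The transport genes Folr1, Aqp1 and Clic6 shared the library order of Ttr at the top. Folr1 (Entrez gene 14275, chromosome 7, 101858331 to 101870788) encodes folate receptor alpha, which moves folate across the choroid plexus. It was at 0.332, 0.449, 0.407 and 3.94 CPM in wild-type and at 10.5, 1.46, 2.36 and 0.170 CPM in Taf8-deleted libraries. Aqp1 (Entrez gene 11826, chromosome 6, 55336299 to 55348555), the water channel gene of the apical membrane, was at 0.796, 0.872, 0.938 and 7.83 CPM in wild-type and at 17.9, 1.43, 4.08 and 0.963 CPM in Taf8-deleted libraries. Clic6 (Entrez gene 209195, chromosome 16, 92498147 to 92541241), an intracellular chloride channel gene, was at 1.46, 1.30, 1.80 and 20.2 CPM in wild-type and at 54.0, 7.53, 8.08 and 0.755 CPM in Taf8-deleted libraries. Wild-type replicate 4 exceeded the mean of the other wild-type libraries 9.96-fold for Folr1, 9.01-fold for Aqp1 and 13.3-fold for Clic6, against 61.2-fold for Ttr, and the groups overlapped for all of them.

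With all libraries the log2 fold changes were 1.51 (SE 1.05) for Folr1, 1.24 (SE 0.98) for Aqp1 and 1.53 (SE 1.13) for Clic6, and none passed (edgeR adjusted p = 0.236, 0.296 and 0.267). Without wild-type replicate 4 they rose 8.82-fold, 6.83-fold and 11.2-fold (adjusted p = 0.0346, 0.0345 and 0.0285). Without deleted replicate 1 the log2 fold changes were -0.045, -0.34 and -0.24 (adjusted p = 0.974, 0.762 and 0.863). Without both they were 1.61, 1.23 and 1.78 (adjusted p = 0.105, 0.0671 and 0.0602). These libraries were the highest of their groups for all of these genes, so the p-values without either or both are a description only.

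Deleted replicate 1 exceeded wild-type replicate 4 by similar factors for these genes: 3.05-fold for Ttr, 2.67-fold for Clic6, 2.66-fold for Folr1 and 2.29-fold for Aqp1. The factor was 2.69 for Msx1 and 2.26 for Kl. It was lower for Lmx1a (1.80), Rsph1 (1.76), Otx2 (1.70) and Enpp2 (1.45).

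The folate transporter genes Slc46a1 and Slc19a1 were at 5.49 to 6.97 and 17.6 to 21.6 CPM over the 8 libraries and did not pass (edgeR adjusted p = 0.370 and 0.406). Of 5 tested relatives of Aqp1 and Clic6, 2 rose (Aqp9 and Aqp11) and 2 fell: Aqp4, the water channel gene of astrocytes, from 1.04 ± 0.206 to 0.733 ± 0.0844 CPM, and Clic1 from 76.4 ± 6.39 to 53.3 ± 2.09 CPM. Red cells and some endothelium also express Aqp1. Red cell markers rose in 6 of 10 tested genes, with summed levels of 259.8 to 339 CPM in wild-type and 351 to 473 CPM in Taf8-deleted libraries. Endothelial and pericyte markers rose in 17 of 20, against 29.5% of all tested genes rising. Their summed levels were 462 to 537 CPM in wild-type and 575 to 684 CPM in Taf8-deleted libraries. The part of these cells in the Aqp1 level was not tested.

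Rsph1 (Entrez gene 22092, chromosome 17, 31255019 to 31277296) encodes a radial spoke head protein of motile cilia. It was at 0.531, 0.723, 0.8289 and 1.71 CPM in wild-type and at 3.01, 0.682, 1.16 and 0.472 CPM in Taf8-deleted libraries. Wild-type replicate 4 and deleted replicate 1 were the top of their groups, and the groups overlapped. The log2 fold change of 0.48 (SE 0.55) did not pass (edgeR adjusted p = 0.479). Without deleted replicate 1 it was -0.38 (SE 0.43) and without both libraries 0.04 (SE 0.35).

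Among 36 motile cilia genes, 12 of 32 tested rose and 0 fell, against 29.5% of all tested genes rising, with a median log2 fold change of 0.65. Deleted replicate 1 was the highest library for 31 of the 36. Without it 6 of 32 rose and 1 fell, with a median of 0.077, against 26.4% of all tested genes rising and 28.7% falling. Without both libraries highest in Ttr 8 of 28 rose and 0 fell, with a median of 0.21, against 25.2% of all tested genes rising and 26.2% falling. The dynein genes Dnah9, from 3.71 ± 0.867 to 9.44 ± 3.91 CPM (edgeR adjusted p = 0.00123), and Dnah12, from 0.121 ± 0.0482 to 0.560 ± 0.229 CPM, rose with groups that did not overlap, as did the central apparatus genes Spag6l, from 3.62 ± 0.915 to 6.49 ± 1.40 CPM, and Spag16, from 0.346 ± 0.0212 to 0.972 ± 0.359 CPM. Separate groups with the Taf8-deleted group higher were found for 26.6% of all tested genes. Foxj1, the transcription factor gene that drives motile cilia, was at 15.7 to 22.6 CPM in wild-type and 14.2 to 33.7 CPM in Taf8-deleted libraries (edgeR adjusted p = 0.320). Of 4 tested radial spoke genes, Rsph3b rose from 3.96 ± 0.374 to 6.31 ± 0.691 CPM and Rsph3a rose from 8.35 ± 1.02 to 10.2 ± 0.800 CPM, while Rsph4a and Rsph9 did not pass (adjusted p = 0.322 and 0.262).

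Levels of the genes relative to each other were read per length, as RPKM (CPM per kilobase of the deposited gene length). By median RPKM the wild-type order was Ttr (6.64), Otx2 (6.005), Enpp2 (3.46), Msx1 (0.894), Rsph1 (0.666), Lmx1a (0.607), Clic6 (0.435), Aqp1 (0.328), Folr1 (0.304) and Kl (0.0478). Only Enpp2 and Msx1, and Folr1 and Kl, were neighbours whose wild-type ranges did not overlap. In Taf8-deleted libraries the order of median RPKM was Ttr (95.1), Otx2 (7.68), Msx1 (4.86), Enpp2 (3.21), Clic6 (2.08), Folr1 (1.36), Lmx1a (1.25), Aqp1 (0.997), Rsph1 (0.791) and Kl (0.0987), and only Rsph1 and Kl were neighbours with separate ranges.

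Choroid plexus genes outside the 10 were mostly highest in the same libraries. Kcnj13, a potassium channel gene of the epithelium, was at 0, 0.0498, 0.0626 and 1.58 CPM in wild-type and at 3.85, 0.390, 0.598 and 0 CPM in Taf8-deleted libraries. Sostdc1, which encodes a secreted WNT and BMP antagonist, was at 4.33 CPM in wild-type replicate 4 and 11.8 CPM in deleted replicate 1, and Cldn2, a tight junction gene, at 0.683 and 1.42 CPM. Of 30 such genes, 24 were highest in deleted replicate 1, 22 were highest of the wild-type group in replicate 4 and 23 were lowest of the deleted group in replicate 4. Of 26 tested, 4 rose (Slc12a2, Slc31a1, Steap1 and Otx2os1) and 2 fell (Cab39l and Stra6), with a median log2 fold change of 0.73. Without wild-type replicate 4 the counts were 11 and 1 (median 0.92), against 26.5% of all tested genes rising and 29.1% falling. Without deleted replicate 1 they were 3 and 1 (median -0.26), against 26.4% and 28.7%. Without both they were 5 and 1 of 23 (median 0.25), against 25.2% and 26.2%. These libraries were singled out for high levels of choroid plexus genes, so the counts without them are a description only. Rpe65 of the retinal pigment epithelium, a tissue that also expresses Ttr and Otx2, did not exceed 0.0189 CPM in any library. Over the 9 markers of that tissue and of pigment cells, 2 of 6 tested rose (Pmel and Best1) and 2 fell (Dct and Rlbp1), and the summed level was 91.8 to 96.1 CPM in wild-type and 46.5 to 51.8 CPM in Taf8-deleted libraries. Alb of liver, another source of Ttr, did not exceed 0.0649 CPM, and 5 of 7 liver markers did not exceed 3 counts in any library.

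**Figure D4:**
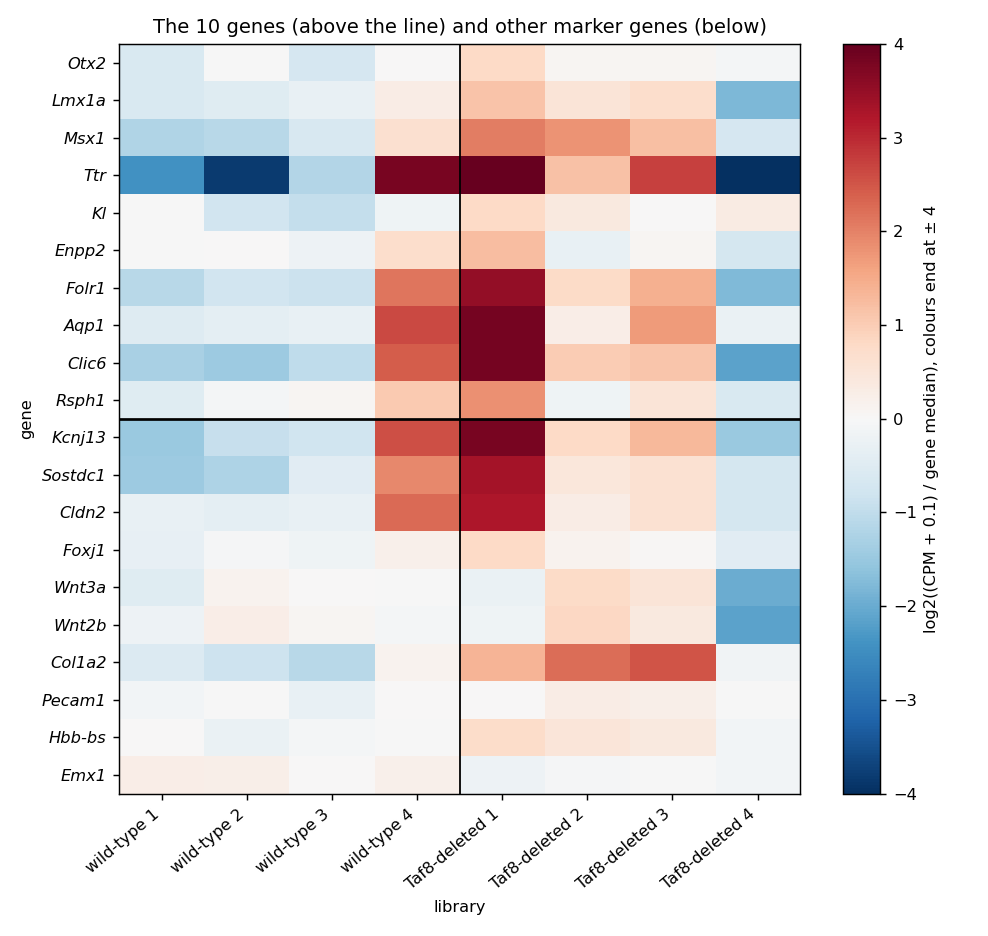
Log2 of (CPM + 0.1) in each library relative to the median of that gene over the 8 libraries, for the 10 genes above the line and for marker genes of choroid plexus, cilia, hem, meninges, vessels, red cells and cortex below it. Wild-type replicate 4 and deleted replicate 1 are high for Ttr, Folr1, Aqp1, Clic6 and Kcnj13, and deleted replicate 4 is low for Wnt3a and Wnt2b.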

How the data were processed

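Gene counts of 8 stranded RNA-seq libraries were used as deposited. Reads were processed with Subread 1.5.0 and featureCounts on mm10, per the submitters' processing notes, and the strand setting, the treatment of multi-mapping reads and the annotation were not stated there. The deposited counts are whole numbers per Entrez gene, beside a deposited gene length, and 25275 of 27179 genes matched a RefSeq symbol. Depth was 26312505 to 65523487 counts. Genes were filtered with filterByExpr, scaled by TMM and tested with edgeR 4.0.16 (quasi-likelihood, both groups, no covariates, Benjamini-Hochberg adjusted p under 0.05) in R 4.3.3, and the scripts were tested on simulated data. CPM uses the TMM-scaled library sizes. Replicates were distinct libraries (chi-square per degree of freedom 3.70 to 28.4 over 12 pairs within groups). The p-values measure the spread between these embryos, which were treated as independent. Alternatives were other scalings, 2 other filters, DESeq2 1.42.0, limma 3.58.1 voom with and without quality weights, the replicate number as a block, a threshold of 0.01, the single-sample files and each library left out.

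The 10 genes and all gene lists were chosen with earlier results of these data known. Named genes are the 10, Taf8, defining markers, the small lists of relatives, up to 4 genes of each other list by smallest adjusted p, and the 5 genes most like Ttr. Most genes that make up a count of 5 or fewer were also named, after their values were seen.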

Additional observations from a re-analysis of the deposited data

Results flagged for a closer look

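For the 10 genes and Taf8 in each group of 4 libraries, 22 sets in all, 7 sets had 1 library that lay far from the other 3, its gap to the nearest one relative to the range of the group exceeding Dixon's 95% critical value. Chance alone flags about 1 set in 20 where values are normally distributed. The CPM were used without a log here, so that rate need not hold. The 10 genes also share the same libraries. In wild-type replicate 4, Ttr was at 366 CPM (next library 11.4), Folr1 at 3.94 CPM (next 0.449), Aqp1 at 7.83 CPM (next 0.938) and Clic6 at 20.2 CPM (next 1.80). In deleted replicate 1, Ttr was at 1117 CPM (next 173), Clic6 at 54.0 CPM (next 8.08) and Otx2 at 22.0 CPM (next 13.4).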

How the results depend on the processing

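The number of the 10 genes called ranged from 1 to 7 with 1 library left out, where 8404 to 9450 of 15714 to 15839 tested genes were called. It was 1 with limma voom, 1 with the replicate block and 0 at an adjusted p under 0.01, where 9229, 8285 and 7159 of all 15649 genes were called, against 9257 in the test reported above. With upper-quartile scaling, library size alone or DESeq2 it was 3, where 9200 to 9361 of 15649 genes were called. It was also 3 with no filter, where 9367 of 21129 genes were called. With 1 library left out, the log2 fold change ran from -0.34 to 5.70 for Ttr, -0.47 to 0.32 for Enpp2, -0.045 to 3.14 for Folr1, -0.34 to 2.77 for Aqp1, -0.24 to 3.49 for Clic6 and -0.38 to 0.88 for Rsph1, each lowest without deleted replicate 1. That of Enpp2 was also below 0 with limma voom (-0.059), with quality weights (-0.14), with the replicate block (-0.044) and without both libraries highest in Ttr (-0.23). The cause was not tested. Same-numbered libraries of the 2 groups did not deviate together (correlation -0.46 to 0.01 over 4 pairs). Whether they share more than a number, such as a processing step, was not tested. Kl and Rsph1 were dropped by the filter of 1 CPM in 4 libraries, and Kl rests on 7 to 27 counts, which limits its precision.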

Other observations

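Of 15649 tested genes, 57 were at least 2-fold above every other library of their group in both wild-type replicate 4 and deleted replicate 1. They include 5 of the 10 genes, 11 of the choroid plexus list, 4 of the motile cilia list and 0 of the hem and meningeal lists. Among those outside the lists, named after their values were seen, Sulf1, which encodes an extracellular sulfatase, was at 34.8 CPM in wild-type replicate 4 and 77.5 CPM in deleted replicate 1, where the next libraries of each group had 16.6 and 30.6 CPM. Wfikkn2, a secreted protease inhibitor gene, was at 9.93 and 24.2 CPM (next 1.40 and 5.09 CPM), and Col8a2, a collagen gene, at 4.23 and 13.9 CPM (next 0.156 and 2.17 CPM). Dnah6, a dynein gene of motile cilia, was at 3.34 and 11.3 CPM (next 1.25 and 1.23 CPM). The genes were selected on these values, which are therefore a description.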
